A study of Mus musculus with 16 samples.

Results

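The comparison described here set skeletal muscle of mice given metformin on a high-fat diet (HFD + metformin group) against skeletal muscle of untreated mice on the same diet (HFD group). Its members were taken from the column names of the deposited count matrices, MH for HFD + metformin and H7 for HFD, which gave 4 mice in each group and 8 of the 16 mice of the series. All mice were male C57BL/6J, about 22 g in weight and 6 weeks old at purchase, and carried no transgene or engineered allele according to the labels. Mice of both groups had received a diet with 60% fat for 8 weeks, and the treated mice were then given metformin for 6 weeks before muscle was collected. The dose and route of metformin, and which muscle was taken, are not given in the sources used here. The study's methods state that some mice of each group they describe were injected with insulin shortly before anaesthesia. They do not describe the metformin group or say which mice were sequenced. An unequal share of injected mice therefore cannot be told apart from metformin. The other groups, 4 mice on normal diet and 4 mice given resveratrol on HFD, entered the same statistical fit and are cited only beside values of the comparison.

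Metformin is a biguanide that lowers blood glucose and is widely used in type 2 diabetes. It inhibits complex I of the mitochondrial respiratory chain and thereby activates AMP-activated protein kinase (AMPK), a sensor of cellular energy that promotes glucose uptake and fatty acid oxidation in muscle and restrains lipid synthesis. Skeletal muscle is the main site of insulin-stimulated glucose disposal, and the suppressors of cytokine signalling (SOCS proteins) dampen JAK-STAT signalling and can also interfere with insulin receptor substrates. Type I and type II interferons act through JAK kinases to switch on a large set of antiviral and antigen presentation genes, many of which carry interferon-stimulated response elements in their promoters.

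RNA had been depleted of ribosomal RNA and sequenced, and reads had been counted per transcript in an mRNA matrix and a long noncoding RNA (lncRNA) matrix. Counts per mouse over both matrices ranged from 24498057 to 30593942 in the HFD group and from 20281801 to 33737422 in the HFD + metformin group, and lncRNAs took 12.0% to 14.5% of them. The muscle genes Acta1, Ckm and Myh4 lay between 8688 and 62461 CPM (counts scaled by library size to a common total) in all 8 mice, whereas the photoreceptor genes Sag and Gnat1 did not exceed 0.972 CPM. On the first principal component of the gene matrix, which held 40.7% of the variance over these 8 mice, metformin mouse MH8-2 stood apart at 75.4 and MH4-3 followed at 39.0, while the remaining 6 mice lay between -34.1 and 7.83. Values without MH8-2 are therefore given beside many of the results it touches, for HFD + metformin against HFD only. All 4 HFD mice carry the leading number 7 in their labels and the metformin mice carry 4, 6, 8 and 8. The labels do not say what this number stands for, so whatever goes with it cannot be told apart from metformin. The replicates are separate mice by their labels. P-values rest on the spread between mice within the groups of all 16 mice, estimated with information shared across features, and not on the 8 mice compared alone.

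A transcript or gene was called at an unadjusted P below 0.05 with an absolute log2 fold change (log2FC) above 1, and the words upregulated and downregulated refer to these criteria. The study used these limits and mentioned control of the false discovery rate without stating that the P was adjusted, so adjusted values are given as well. Of 15364 genes tested, 271 were called (1.76%), 208 upregulated (1.35%) and 63 downregulated (0.41%) in HFD + metformin against HFD. At an unadjusted P below 0.05 and any fold change, 1232 genes differed (8.02%), of which 803 were higher (5.23%) and 429 lower (2.79%). Only 2 genes passed a Benjamini-Hochberg adjusted P below 0.05 in edgeR's quasi-likelihood test (0.013%), namely Oasl2 and Nr4a3. The next smallest adjusted P was 0.141, so that every other gene named below as upregulated, downregulated, higher or lower passed an unadjusted threshold alone, and counts are to be read against the shares above. The expression of 571 genes (3.72%) did not overlap between the 4 mice of each group. Without MH8-2, 107 genes were called, 53 upregulated and 54 downregulated, and the shift towards upregulation seen with all mice was absent. The shares above belong to the fit with all mice. Shares of all genes at an unadjusted P below 0.05 without MH8-2 are not given here, so list counts without this mouse lack them. The median log2FC over all genes was 0.02.

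Most interferon-stimulated genes tested were higher in the muscle of the metformin mice. Of 32 such genes tested, 23 were higher at an unadjusted P below 0.05 and none lower, where 5.23% of all genes were higher, 7 met the criteria, and the median log2FC was 0.76 against 0.02 over all genes. Their summed expression was 158 to 199 CPM in the HFD mice and 209 to 470 CPM in the metformin mice, with no overlap and the highest value in MH8-2. Without MH8-2, 16 of the 32 genes were higher at an unadjusted P below 0.05, 1 met the criteria and the median was 0.49. The share of 5.23% belongs to the fit with all mice and not to this one. Because whole muscle was sequenced, a change in the number of cells of a given type and a change in RNA per cell cannot be told apart.

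Many promoters of interferon-stimulated genes carry a short sequence element, which is shown here as background. The listed genes were chosen as interferon-stimulated. A high share with this element follows from that choice and is no result about these mice. The letters GAAANNGAAA, the core of the interferon-stimulated response element, were searched on both strands from 250 bases before to 50 bases after the start of each gene in RefSeq (GRCm38.p6). They were found in 15 of the 24 listed genes with a promoter sequence (62.5%) and in 1079 of all 27025 genes (3.99%). Ifit1 carried 2 matches, beginning 104 and 85 bases before its start, and Bst2 carried 2 overlapping matches that began 130 and 124 bases before its start. No match lay in the windows of Oasl2, Irf7 and Ifi44. The stretches from 170 bases before to 30 bases after the start are printed 5′ to 3′ on the strand of the gene, with the matches in capitals, for Ifit1 at chr19:34640719-34640918 (plus strand) and Bst2 at chr8:71537443-71537642 (minus strand).
Ifit1: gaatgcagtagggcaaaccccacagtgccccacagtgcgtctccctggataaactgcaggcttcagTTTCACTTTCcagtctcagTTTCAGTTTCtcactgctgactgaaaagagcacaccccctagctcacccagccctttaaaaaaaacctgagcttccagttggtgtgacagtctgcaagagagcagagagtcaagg
Bst2: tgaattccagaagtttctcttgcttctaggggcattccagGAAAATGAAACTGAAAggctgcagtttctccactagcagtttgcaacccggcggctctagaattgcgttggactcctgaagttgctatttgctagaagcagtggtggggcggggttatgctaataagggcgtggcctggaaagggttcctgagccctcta

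Among the antiviral effectors, Oasl2, a protein of the oligoadenylate synthetase family, gave the smallest P-value of all genes. Its expression was 3.07, 3.70, 3.32 and 3.81 CPM in HFD mice H7-2, H7-3, H7-4 and H7-5 and 6.49, 7.0, 8.83 and 6.50 CPM in metformin mice MH4-3, MH6-5, MH8-2 and MH8-4. Mice are given in this order throughout. Every metformin mouse was above every HFD mouse, and the difference between the groups exceeded the range within either. The log2FC was 1.05 ± 0.14 (SE, n = 4 per group), with an adjusted P of 0.0133 in edgeR's quasi-likelihood test over all genes. Without MH8-2 it was 0.94 and the adjusted P was 0.0691. Over 14 alternative fits the adjusted P was below 0.05 in 8 and reached 0.237 by edgeR. Per length, Oasl2 rose from 1.5 ± 0.14 to 3.63 ± 1.15 FPKM (SD, n = 4).

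Ifit1, which binds viral RNA that lacks host cap methylation and whose promoter is printed above, was 2.38, 2.29, 2.61 and 2.53 CPM in the HFD mice and 3.90, 5.32, 8.20 and 4.92 CPM in the metformin mice. Again the groups did not overlap, and the HFD mice lay within a narrow band. The log2FC was 1.19 ± 0.20, and the adjusted P by edgeR was 0.141, so that Ifit1 passed the unadjusted criteria only. Without MH8-2 the log2FC was 0.95 (adjusted P = 0.246), just under the minimum fold. Irf7, the transcription factor that amplifies type I interferon responses, was 1.75 to 2.53 CPM in HFD and 3.27 to 6.42 CPM in HFD + metformin (log2FC = 1.07 ± 0.25). Ifi44 (log2FC = 1.11 ± 0.26) and Rtp4 (log2FC = 1.05 ± 0.28) were likewise upregulated without overlap of the groups. Ifi44 was among the few listed genes that did not lean on MH8-2, with 1.99 CPM in that mouse, 1.94 to 2.70 CPM in the other metformin mice, and a log2FC of 1.16 without it.

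The remaining interferon-stimulated genes included sensors, signalling factors and chemokines. Ddx58, which encodes the RNA sensor RIG-I, was 7.11 to 8.71 CPM in HFD and 9.13 to 18.7 CPM in HFD + metformin (log2FC = 0.73 ± 0.18, adjusted P = 0.468). Bst2, which tethers budding virions, was 4.02 to 5.57 CPM in HFD and 6.50 to 9.46 CPM in HFD + metformin (log2FC = 0.56 ± 0.15, adjusted P = 0.545). The groups did not overlap for these genes. The chemokine gene Cxcl9 (log2FC = 1.63 ± 0.56) and the nucleic acid sensor gene Zbp1 (log2FC = 1.17 ± 0.53) met the criteria with overlapping groups, and both lost the call without MH8-2, with log2FC of 1.15 and 0.71. Cxcl10 was the only listed gene with a negative log2FC, at -0.46 (adjusted P = 0.858). Ddx58 and Bst2 were named after their values had been seen.

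**Figure D1:**
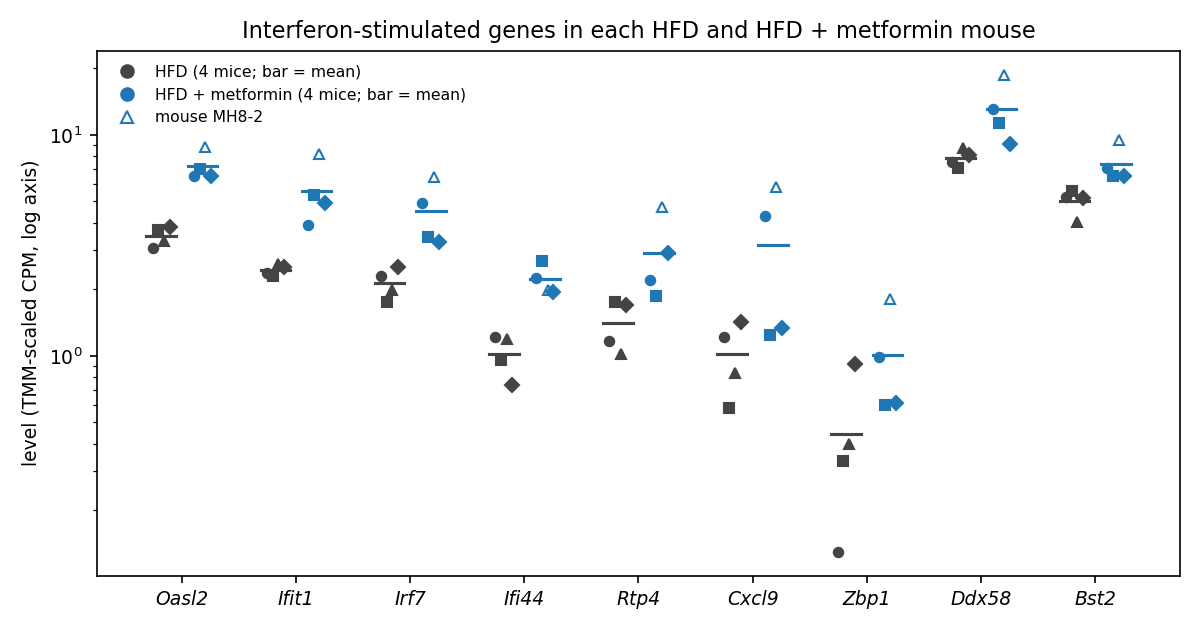
Level of 9 interferon-stimulated genes (TMM-scaled CPM, log axis) in each mouse, with grey points for the 4 HFD mice, blue points for the 4 HFD + metformin mice, bars for group means and an open triangle for MH8-2. For Oasl2, Ifit1, Irf7, Ifi44, Rtp4, Ddx58 and Bst2 all metformin mice lie above all HFD mice, and for Ifi44 MH8-2 is not the highest.

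Genes that present antigen to T cells leaned the same way but rested on fewer mice. Of 21 genes tested, 9 were higher at an unadjusted P below 0.05, where 5.23% of all genes were higher. Of the 21, 1 met the criteria and none was lower, with a median log2FC of 0.46. The class I genes H2-Q4 (log2FC = 0.88 ± 0.27) and H2-Q7 (0.98 ± 0.34), the peptide transporter Tap1 (0.83 ± 0.25) and the immunoproteasome subunit Psmb9 (0.83 ± 0.26) were higher. Class I genes form a family of close copies, so their counts are uncertain. Nlrc5, the transactivator of class I genes, was 5.13 to 10.8 CPM in HFD and 6.07 to 27.4 CPM in HFD + metformin, which overlap (log2FC = 1.01 ± 0.37, adjusted P = 0.611). By contrast, the class II genes H2-Aa, H2-Ab1 and H2-Eb1 had log2FC of 0.11, 0.10 and 0.05 and did not pass. Without MH8-2, 3 of the 21 genes were higher, none met the criteria and the median was 0.27. None of the 22 macrophage markers and neither of the 2 lymphocyte or neutrophil markers tested differed at an unadjusted P below 0.05. Summed macrophage markers were 204 to 384 CPM in HFD and 168 to 493 CPM in HFD + metformin.

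The interferon-stimulated genes were also compared with the resveratrol mice, a contrast that does not use the HFD mice. It uses the same metformin mice, MH8-2 included, and was not repeated without MH8-2. Oasl2 was higher in HFD + metformin than in HFD + resveratrol at the unadjusted threshold (log2FC = 0.67, adjusted P = 0.518 by edgeR), as was Ifit1 (log2FC = 1.10, adjusted P = 0.495). Of the 32 genes, 16 were higher in metformin than in resveratrol at an unadjusted P below 0.05 and none was lower, with a median log2FC of 0.66. No gene passed an adjusted P below 0.05 in this contrast, and 719 of all genes had an unadjusted P below 0.05 (4.68%), 463 of them higher (3.01%) and 256 lower (1.67%). The summed expression of the list was 170 to 200.2 CPM in the resveratrol mice and 193 to 378 CPM in the normal diet mice, the latter overlapping with the metformin mice.

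The gene that fell at an adjusted P below 0.05 was Nr4a3, an orphan nuclear receptor of the NR4A family that is induced rapidly in muscle by exercise and adrenergic signals. Its expression was 19.8, 35.2, 26.2 and 8.50 CPM in the HFD mice and 2.86, 2.88, 2.83 and 2.48 CPM in the metformin mice. The metformin mice were nearly equal to each other, the HFD mice spread over a wide range, and the groups did not overlap. The mean was 8.11-fold lower with metformin, and the log2FC was -3.02 ± 0.39 (SE, n = 4 per group) with an adjusted P of 0.0133 in edgeR's quasi-likelihood test. Without MH8-2 the log2FC was -3.03 with an adjusted P of 0.105, and the criteria were met in all 14 alternative fits. The adjusted P was below 0.05 in 7 of these fits and reached 0.202 by edgeR. In the direct contrast, Nr4a3 was also lower in HFD + metformin than in HFD + resveratrol at the unadjusted threshold (log2FC = -1.41, adjusted P = 0.961). Its main transcript ENSMUST00000030025 had counts of 168 to 797 in HFD and 35 to 59 in HFD + metformin (log2FC = -3.34 ± 0.41, adjusted P = 0.0251 by edgeR over all transcripts).

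The other NR4A receptors did not pass the test, with log2FC of -0.32 for Nr4a1 (adjusted P = 0.746) and -0.62 for Nr4a2 (adjusted P = 0.765). Of 23 immediate early genes tested, 3 were lower at an unadjusted P below 0.05 and none higher, with a median log2FC of -0.09. Besides Nr4a3 these were Ier5 (log2FC = -0.60 ± 0.21) and the stress-responsive transcription factor Atf3 (-1.88 ± 0.79). For Atf3 the groups overlapped (6.49 to 27.5 CPM in HFD, 1.48 to 11.3 CPM in HFD + metformin), and the call was lost in 5 of 14 alternative fits. Fos, Jun and Egr1, the classical members of this class, had log2FC of -0.44, -0.09 and 0.41 and did not pass.

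Some feedback inhibitors of cytokine signalling were downregulated. Of 9 genes tested on the SOCS family list, 3 were downregulated, Socs1, Socs3 and Cish, where 0.41% of all genes were, and none was higher. The list also holds Bcl6, which is not a SOCS gene. The median over the list was -0.28, and -0.09 without MH8-2, where the same genes passed. The summed expression was 398 to 426 CPM in HFD and 283 to 337 CPM in HFD + metformin, with no overlap. Bcl6 is part of these sums, at 87.0 to 122 CPM in HFD and 46.3 to 112 CPM in HFD + metformin. Its log2FC of -0.28 did not pass and is also the list median. The letters TTCNNNGAA, to which STAT proteins can bind, were found in 9.55% of the promoter windows of all 27025 genes. Of the 5 listed genes with a RefSeq sequence, 3 had a match, Socs3, Cish and Bcl6. Stretches are printed for the downregulated genes that had a match. For Socs3, at chr11:117969337-117969536 (minus strand), it began 154 bases before the start. For Cish, at chr9:107296489-107296688 (plus strand), matches began at the start and 11 bases after it. No match lay in the windows of Socs1 and Socs4, and a link between these letters and the lower expression was not tested.
Socs3: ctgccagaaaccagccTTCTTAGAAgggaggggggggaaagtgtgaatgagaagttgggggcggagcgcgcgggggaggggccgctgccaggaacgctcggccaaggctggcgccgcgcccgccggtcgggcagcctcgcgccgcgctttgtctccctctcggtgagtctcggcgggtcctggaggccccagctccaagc
Cish: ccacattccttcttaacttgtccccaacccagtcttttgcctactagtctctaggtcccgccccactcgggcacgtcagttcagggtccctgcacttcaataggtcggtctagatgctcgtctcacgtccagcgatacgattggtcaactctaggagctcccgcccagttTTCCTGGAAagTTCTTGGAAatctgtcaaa

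Socs1, an inhibitor of JAK kinases, was 1.3, 1.46, 3.36 and 6.57 CPM in the HFD mice and 1.10, 0.262, 0.803 and 0.790 CPM in the metformin mice. The groups did not overlap, but the lowest HFD mouse and the highest metformin mouse were close. The log2FC was -2.11 ± 0.50 (adjusted P = 0.44 by edgeR), and the criteria were met in all 14 alternative fits. Socs3, an inhibitor of gp130 and insulin signalling, was 7.05, 4.66, 9.11 and 18.8 CPM in HFD and 4.34, 1.57, 4.65 and 4.10 CPM in HFD + metformin. The gap between the groups was small, and without HFD mouse H7-5 the log2FC moved from -1.44 ± 0.38 to -0.92, short of the minimum fold.

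Cish, which limits STAT5 signalling downstream of growth hormone and several cytokines, was 52.4, 54.6, 67.4 and 98.0 CPM in HFD and 17, 8.99, 61.1 and 6.58 CPM in HFD + metformin. In 3 of the metformin mice the expression was far below the HFD range, and only MH8-2 lay within it. With all mice the log2FC was -1.54 ± 0.58 (adjusted P = 0.612), and without MH8-2 it was -2.66 (adjusted P = 0.238). The call was lost in 3 of 14 alternative fits, namely with the 8 mice alone, without H7-5 and without MH6-5. Socs2, another target of the growth hormone pathway, had a log2FC of -0.65 and missed the unadjusted threshold (adjusted P = 0.618).

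**Figure D2:**
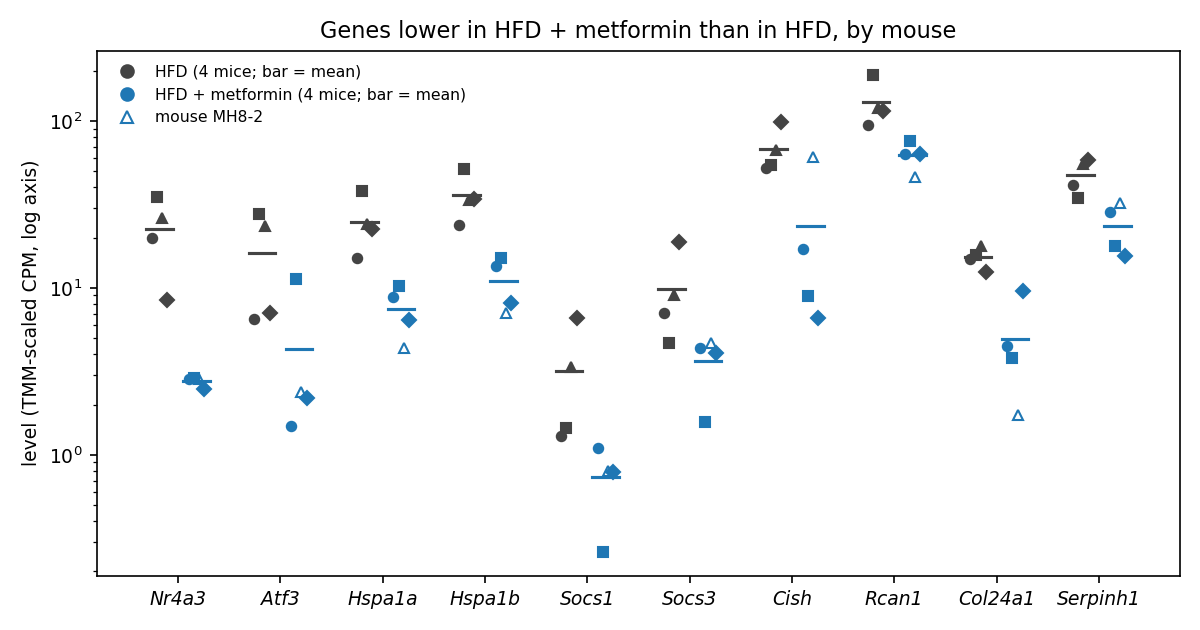
Level of 10 genes with a negative log2FC (TMM-scaled CPM, log axis) in each mouse, with grey points for the 4 HFD mice, blue points for the 4 HFD + metformin mice, bars for group means and an open triangle for MH8-2. The Nr4a3 values of the metformin mice nearly coincide between 2.48 and 2.88 CPM, and the Cish value of MH8-2, 61.1 CPM, lies among the HFD mice.

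Genes of the inducible chaperone HSP70 were downregulated as well. Hspa1b and Hspa1a, neighbouring genes that both encode it and may share reads, were 23.9, 51.5, 33.5 and 34.3 CPM and 15.1, 37.8, 24.3 and 22.6 CPM in the HFD mice. In the metformin mice they were 13.5, 15, 7.10 and 8.12 CPM and 8.80, 10.3, 4.35 and 6.43 CPM. All metformin mice lay below all HFD mice for both genes (log2FC = -1.71 ± 0.34 and -1.74 ± 0.35, adjusted P = 0.252 for both by edgeR), and both genes were called in all 14 alternative fits. Of 18 heat shock genes tested, 5 were lower at an unadjusted P below 0.05 and none higher, with a median log2FC of -0.20. Of all genes 2.79% were lower, and the 5 include both Hspa1a and Hspa1b. Without MH8-2, 4 were lower and the median was -0.08. Hspa5, the chaperone BiP of the endoplasmic reticulum, was 142 to 160 CPM in HFD and 81.3 to 128 CPM in HFD + metformin (log2FC = -0.51 ± 0.13). Hsp90aa1 (log2FC = -0.45 ± 0.19) and Hsph1 (-0.42, adjusted P = 0.618) completed the group. Among the cofactors, Dnajb1 (0.23) and Bag3 (-0.14) did not pass. Serpinh1, a collagen-specific chaperone, was also downregulated (34.6 to 58.1 against 15.5 to 32.1 CPM, log2FC = -1.01 ± 0.26).

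Several single genes met the criteria without overlap of the groups and with a mean of at least 1 CPM in the higher group. There were 30 such upregulated and 25 such downregulated genes, of which up to 15 in each direction were named by P-value. Among those not yet described, the sphingosine-1-phosphate transporter Spns2 was 42.3 to 55.0 CPM in HFD and 86.0 to 148 CPM in HFD + metformin (log2FC = 1.10 ± 0.27). Zfp346, a zinc finger protein that binds double-stranded RNA, was 4.37 to 6.11 CPM in HFD and 13.7 to 20.6 CPM in HFD + metformin (log2FC = 1.83 ± 0.39). Absence of overlap was a condition for naming both. Lower expressed upregulated genes were Doc2b, a calcium sensor of vesicle fusion (log2FC = 2.21 ± 0.52), Pon1, a serum paraoxonase (2.52 ± 0.63), Epha3, an ephrin receptor (2.18 ± 0.62), and the interferon-related genes Slfn9 (1.10 ± 0.26) and Ifi213 (1.23 ± 0.33), none of which exceeded 6.29 CPM in any of the 8 mice. Ppia, AA986860 and Gm29609 completed the upregulated set with log2FC of 1.57, 1.37 and 1.18. Ppia has near-identical copies in the genome, so its low counts are uncertain.

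Among the downregulated genes, Mlxip, a glucose-responsive transcription factor also known as MondoA, was 177, 184, 76.8 and 173 CPM in HFD and 54.2, 69.1, 54.5 and 67.6 CPM in HFD + metformin (log2FC = -1.31 ± 0.40). Here HFD mouse H7-4 lay close to the metformin mice, while the other HFD mice were far above them. Rcan1, an inhibitor of calcineurin, was 95.0 to 189 CPM in HFD and 46.3 to 76.0 CPM in HFD + metformin (log2FC = -1.06 ± 0.28). The collagen gene Col24a1 was 12.4 to 17.9 CPM in HFD and 1.73 to 9.56 CPM in HFD + metformin (log2FC = -1.63 ± 0.41). Utp14b, a factor of ribosomal RNA processing, was 39.5 to 88.7 CPM in HFD and 22.9 to 37.3 CPM in HFD + metformin (log2FC = -1.09 ± 0.22). The remaining genes Gm12185, Fsbp, Kcnh7, Crybb1 and Iqgap3 had log2FC between -2.33 and -1.04 and no more than 3.05 CPM in any of the 8 mice.

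For the same genes the values of the diet and resveratrol contrasts are given side by side, and all these contrasts share the HFD mice, so that a high or low HFD group enters each of them. Nr4a3 had a log2FC of 1.41 in HFD against normal diet, -3.02 with metformin and -1.61 with resveratrol. For Socs1 these values were 2.52, -2.11 and -2.37, and for Cish 2.31, -1.54 and -2.54. Hspa1a had 0.90, -1.74 and -1.33, and Spns2 had -1.27, 1.10 and 1.06. Mlxip had 0.28, -1.31 and -0.33, and Ifit1 had -0.37, 1.19 and 0.09. In the direct contrast of the treated groups, Socs1, Socs3, Cish and Hspa1a did not pass (log2FC of 0.26, 0.05, 1.00 and -0.41), and Mlxip was lower with metformin at the unadjusted threshold (log2FC = -0.99, adjusted P = 0.962).

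The genes most often connected with metformin showed few differences. Of 15 genes for AMPK subunits and upstream kinases, none met the criteria and 1 was higher at an unadjusted P below 0.05, with a median log2FC of -0.06. This was the regulatory subunit Prkag2 (12.8 to 14.1 CPM in HFD, 11.8 to 41.5 CPM in HFD + metformin, log2FC = 0.76 ± 0.35, adjusted P = 0.618), and without MH8-2 its log2FC was 0.27 and did not pass. The main catalytic subunit of muscle, Prkaa2, was 580 ± 45.2 CPM in HFD and 526 ± 113 CPM in HFD + metformin (SD, n = 4, log2FC = -0.14 ± 0.15). Of the organic cation and other transporters that carry metformin, 4 of 8 were expressed enough to be tested and none passed. Slc22a3 among them ranged from 1.05 to 30.5 CPM in the metformin mice. Transcript levels do not report on the phosphorylation by which AMPK is activated.

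Of 36 complex I subunit genes, 2 were lower at an unadjusted P below 0.05, Ndufa13 (log2FC = -0.38 ± 0.13) and Ndufa1 (-0.27 ± 0.12), and the median was -0.10. None of the 13 mitochondrially encoded mRNAs passed (log2FC from -0.12 to 0.13). Of 15 regulators of mitochondrial biogenesis, 2 were higher, among them the deacetylase Sirt1 (7.96 to 10.1 CPM in HFD, 9.74 to 22.2 CPM in HFD + metformin, log2FC = 0.77 ± 0.22). The groups overlapped for Sirt1, and the value was 0.51 without MH8-2, which still passed the unadjusted threshold.

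Of 30 genes of insulin signalling and glucose uptake, 4 were higher and 3 lower at an unadjusted P below 0.05, none met the criteria, and the median log2FC was -0.01. Of all genes, 5.23% were higher and 2.79% lower. Without MH8-2, 1 gene was higher (Ptpn1) and 3 were lower. The lower genes were the insulin receptor substrates Irs1 and Irs2 and the pseudokinase Trib1. Irs1 was 89.1, 132, 108 and 120 CPM in HFD and 86.7, 73.4, 83.3 and 70.4 CPM in HFD + metformin, so that the lowest HFD mouse lay just above the highest metformin mouse (log2FC = -0.52 ± 0.17). Irs2 (log2FC = -0.63 ± 0.23) and Trib1 (-0.63 ± 0.19) overlapped between the groups. Among the higher genes, Ptpn1 (0.23 ± 0.08), Inpp5k (0.17) and Foxo1 (0.46 ± 0.20, and 0.17 without MH8-2) changed little, and the first 2 of these encode phosphatases that act against insulin signalling. The glucose transporter Slc2a4 was 360 ± 10.2 CPM in HFD and 372 ± 63.7 CPM in HFD + metformin (SD, n = 4, log2FC = 0.05 ± 0.12).

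Core clock genes were measured at an unstated time of day. Of 20 genes tested, 3 were lower and 1 higher at an unadjusted P below 0.05, where 2.79% of all genes were lower and 5.23% higher. The repressor Nfil3 was 25.8 to 39.0 CPM in HFD and 14.1 to 22.6 CPM in HFD + metformin without overlap (log2FC = -0.73 ± 0.18), and the activators Arntl (-0.53 ± 0.22) and Npas2 (-0.71 ± 0.33) were lower. Per1 was higher (0.43 ± 0.20). Among 29 genes of glycolysis and glycogen metabolism and 40 cytosolic ribosomal protein genes, 0 and 1 differed at an unadjusted P below 0.05. In other groups, Eif4ebp1, the translational repressor 4E-BP1, was 26.9 to 33.1 CPM in HFD and 32.8 to 64.8 CPM in HFD + metformin (log2FC = 0.65 ± 0.18). Igf1, the growth factor gene, had a log2FC of 0.56 ± 0.23, Erfe, which encodes erythroferrone, of -0.90 ± 0.37, and the collagen gene Col15a1 of -0.64 ± 0.19.

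Further lists held few differences at an unadjusted P below 0.05. Of 22 cholesterol genes, 1 was higher, the synthase Hmgcs1 (log2FC = 0.60 ± 0.28), and none without MH8-2. Of 22 genes of the integrated stress response, Eif4ebp1 was higher and Atf3 lower. Of 23 antioxidant genes, the pentose phosphate enzyme Tkt was upregulated with overlapping groups (1.37 ± 0.61, and 0.44 without MH8-2) and Gsr was lower. The Gsr difference cannot be told apart from a different assignment of reads shared with a lncRNA, as described below. Of 19 atrophy and FoxO genes, Foxo1 and the mitophagy receptor Bnip3 (0.32 ± 0.14) were higher and Foxo4 (-0.30 ± 0.13) was lower, and none of these passed without MH8-2. The glucocorticoid target list had 3 of 18 genes higher, namely Per1, the FK506-binding cochaperone Fkbp5 (0.93 ± 0.42) and the lipase Pnpla2 (0.86 ± 0.40), of which Per1 alone passed without MH8-2. Of 18 neuromuscular junction genes, the synapse organiser Agrn was higher (0.32 ± 0.14), and the deacetylase Hdac4 (-0.45 ± 0.18) and the receptor-clustering protein Rapsn (-0.30 ± 0.14) were lower, and none of these passed without MH8-2 either. None of 14 satellite cell genes and none of 20 Schwann cell markers passed, and of 25 fibroblast and collagen genes 1 did, Col15a1. Of 20 muscle-secreted factors, Igf1 was higher and Erfe lower, and both missed the unadjusted threshold without MH8-2.

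**Figure D3:**
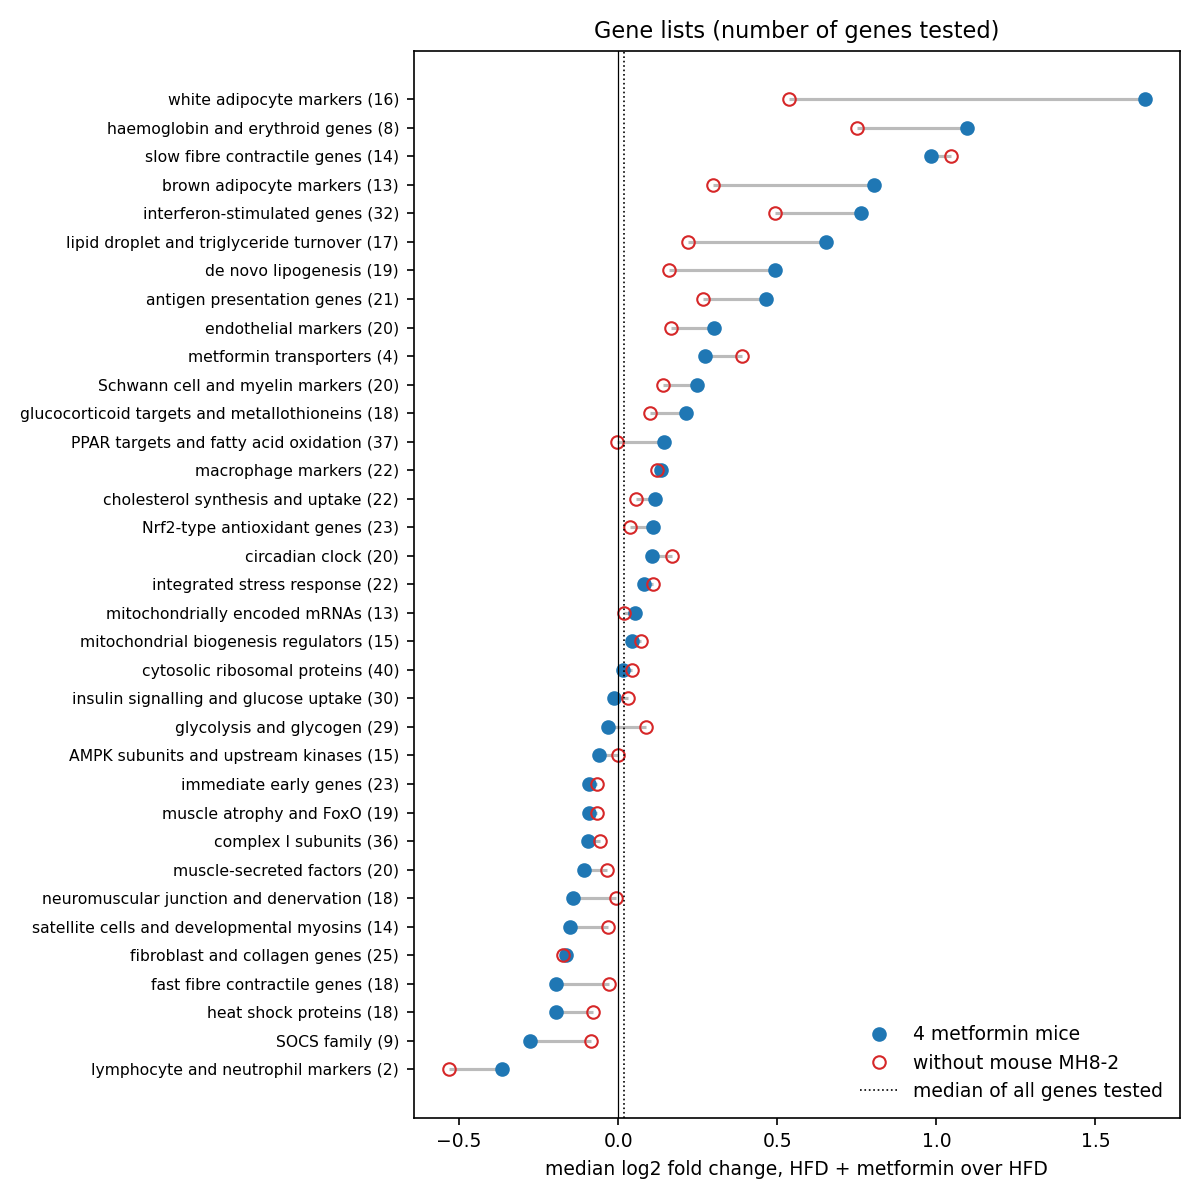
Median log2FC (horizontal axis, HFD + metformin over HFD) of each gene list with all 4 metformin mice (filled points) and without MH8-2 (open points), with the number of genes tested in parentheses and the median of all genes as a dotted line. The white adipocyte list moves from 1.66 to 0.54 and the interferon-stimulated list from 0.76 to 0.49 when MH8-2 is left out, while the slow fibre list stays near 1 (0.98 and 1.05).

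Adipocyte and lipid genes differed mainly through mouse MH8-2. Of 16 white adipocyte markers, 3 were higher at an unadjusted P below 0.05, 2 met the criteria and the median log2FC was 1.66, whereas without MH8-2 none passed and the median was 0.54. Their summed expression was 740, 818, 1183 and 1984 CPM in the HFD mice and 3112, 920, 8107 and 910 CPM in the metformin mice, so that MH6-5 and MH8-4 lay within the HFD range and MH4-3 and MH8-2 above it. Adipoq, the gene of the fat-cell hormone adiponectin, ranged from 11.2 to 94.1 CPM in HFD and from 3.67 to 355 CPM in HFD + metformin and did not pass (log2FC = 1.59, adjusted P = 0.684). Of 13 brown adipocyte markers tested, 4 were higher with all mice and none without MH8-2. Ucp1, the uncoupling protein of brown fat, was 89.9 CPM in MH8-2 and at most 3.13 CPM in the other 7 mice.

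A similar pattern was seen for lipid droplet and triglyceride genes, of which 7 of 17 were higher at an unadjusted P below 0.05, 6 met the criteria and the median log2FC was 0.65. These lists share genes and are not separate observations. Lipe and Cidec are also on the white adipocyte list, Cidea on the brown adipocyte list and Pnpla2 on the glucocorticoid list. Without MH8-2 none of the 17 passed, and the median was 0.22. Dgat2, which catalyses the last step of triglyceride synthesis, was 26.2 to 46.3 CPM in HFD and 77.2, 51.4, 233 and 30.1 CPM in the metformin mice. Of 19 lipogenesis genes, 4 were higher, 2 of them at the criteria (Thrsp and Acaca), and 1 was higher without MH8-2. This was Srebf1, the master regulator of fatty acid synthesis, which was 63.3 to 94.3 CPM in HFD and 93.2 to 142 CPM in HFD + metformin (log2FC = 0.70 ± 0.20, and 0.60 without MH8-2). Of 37 genes of fatty acid oxidation, 2 were higher, the uncoupling protein Ucp2 (0.69 ± 0.25) and the acyl-CoA synthetase Acsl1 (0.71 ± 0.33), and none without MH8-2. The interferon-stimulated list had its highest sum in the same mouse, and the part of adipose tissue in that result was not tested. In the other metformin mice the sum of this list was 209 to 241 CPM.

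Several blood and vessel genes were higher too. Of 8 haemoglobin and erythroid genes tested, 7 were higher at an unadjusted P below 0.05, where 5.23% of all genes were higher. Of the 8, 5 met the criteria, with a median log2FC of 1.10. Hba-a1, the alpha-globin gene, was 136, 173, 135 and 130 CPM in HFD and 351, 213, 497 and 184 CPM in HFD + metformin, with no overlap (log2FC = 1.12 ± 0.37, adjusted P = 0.6). Its copies are near identical, so that reads may be split between them. Alas2, the erythroid haem enzyme, was 3.95 to 7.48 CPM in HFD and 6.79 to 22.9 CPM in HFD + metformin (log2FC = 1.21 ± 0.42). Without MH8-2, 2 of the 8 genes were higher, none met the criteria and the median was 0.75. Of 20 endothelial markers, 7 were higher and none lower (Ly6c1, log2FC = 0.33 ± 0.11), and 2 without MH8-2. The part of residual blood in these values was not tested.

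Contractile genes did not pass. The slow fibre list had a median log2FC of 0.98 over 14 genes with none at an unadjusted P below 0.05, as the slow light chain Myl3 ranged from 0.919 to 24.8 CPM in HFD and from 31.4 to 102 CPM in HFD + metformin (log2FC = 2.44 ± 1.27, adjusted P = 0.636). The groups did not overlap for Myl3, but the spread within them was large. The 18 fast fibre genes had a median of -0.20 with none passing, and a median of -0.03 without MH8-2. Their summed expression was 77352 CPM in MH8-2 and 123709 to 151894 CPM in the other 7 mice.

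**Figure D4:**
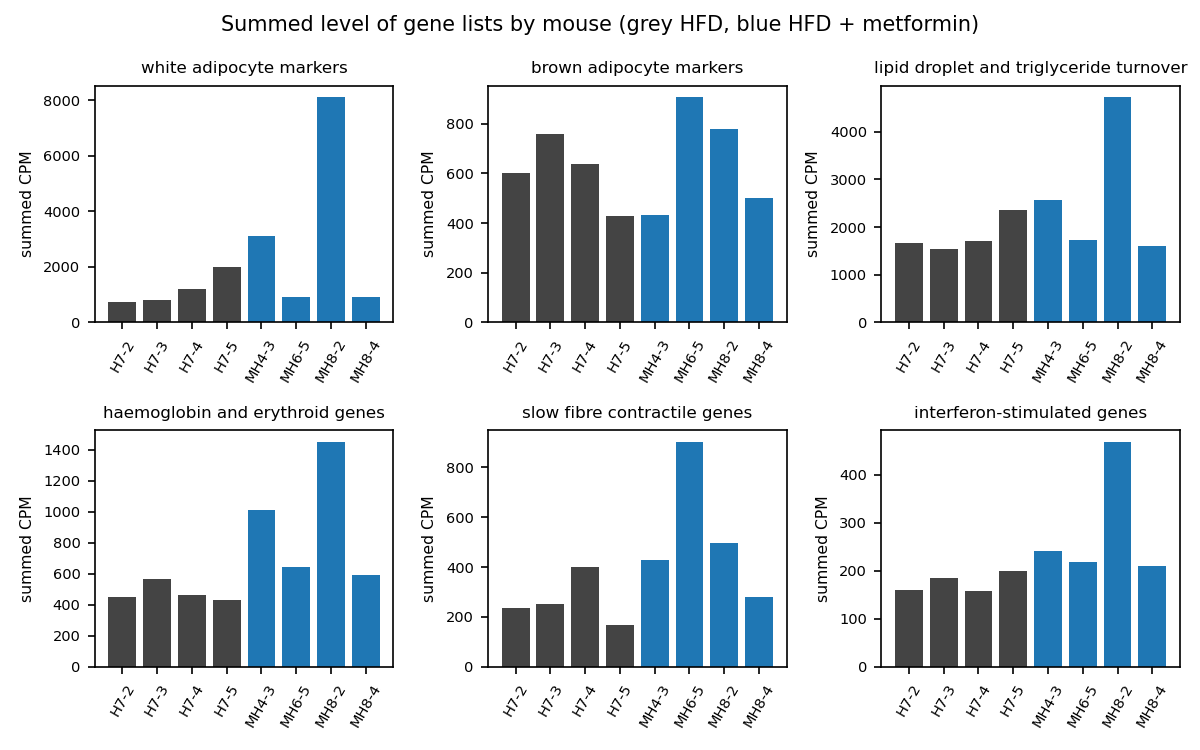
Summed level (CPM, vertical axis from 0) of 6 gene lists in each of the 4 HFD mice (grey bars) and 4 HFD + metformin mice (blue bars). MH8-2 is highest for the white adipocyte list (8107 CPM), the lipid droplet list (4725 CPM), the haemoglobin list (1453 CPM) and the interferon-stimulated list (470 CPM), and for this last list and the haemoglobin list the other metformin mice also lie above all HFD mice.

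Pathways in the annotation column of the deposited mRNA matrix (KEGG) were ranked by their median log2FC as a description, over 265 pathways with at least 20 genes tested. The highest were Graft-versus-host disease and Autoimmune thyroid disease (both 0.62), Allograft rejection (0.58), Type I diabetes mellitus (0.50) and Steroid hormone biosynthesis (0.49). The first 4 of these include antigen presentation genes, each had 10 genes higher at an unadjusted P below 0.05, and their medians without MH8-2 were 0.16 to 0.28. The lowest were Protein digestion and absorption (-0.10), Amphetamine addiction (-0.09), Proteasome (-0.07), Type II diabetes mellitus (-0.07) and Oocyte meiosis (-0.06), and without MH8-2 these medians lay between -0.11 and 0.0046.

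In the lncRNA matrix, 419 of 17599 lncRNAs tested were called (2.38%), 234 upregulated (1.33%) and 185 downregulated (1.05%). None passed an adjusted P below 0.05 by edgeR, where the smallest adjusted P was 0.119, while 1223 had an unadjusted P below 0.05 and DESeq2 gave 36 at an adjusted P below 0.05. The groups did not overlap for 644 of the 17599 lncRNAs, among them 44 of the upregulated and 79 of the downregulated. Of these called lncRNAs without overlap, 6 in each direction were named by P-value.

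The lncRNA with the smallest P-value was NONMMUT065156.2, at chr8:33697247-33698161 (GRCm38). Its 915 bases lie wholly within an exon of Gsr, the gene of glutathione reductase, of which up to 869 bases are annotated as UTR and 46 as coding sequence in GENCODE M21. Counts were 2, 3, 2 and 2 in the HFD mice and 233, 346, 351 and 367 in the metformin mice. The pooled ratio of depth-scaled counts was 142, with an exact 95% interval from 74.7 to 312 that covers counting error only (log2FC = 6.93 ± 0.98, adjusted P = 0.119 by edgeR). Gsr itself, with counts summed over the whole gene, was lower with metformin, at 34.3, 29.98, 28.9 and 32.5 CPM in HFD and 19.9, 17.8, 20.5 and 16.9 CPM in HFD + metformin (log2FC = -0.74 ± 0.17, adjusted P = 0.398).

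When the counts of Gsr and this lncRNA were added, the groups overlapped, at 29.0 to 34.4 CPM in HFD and 30.04 to 35.4 CPM in HFD + metformin. The lncRNA held 0.252% to 0.414% of this sum in the HFD mice and 39.2% to 43.9% in the metformin mice. It held 37.4% to 41.1% in the normal diet mice, and in the resveratrol mice the share was 0.276% at its lowest and 43.6% at its highest. No mouse of the series lay between 0.414% and 37.4%. Since the reads of the shared exon could be assigned to either feature, a lower Gsr and a higher lncRNA cannot be told apart here from a different assignment of the same reads.

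A comparable exchange was seen at Tcf12, a basic helix-loop-helix transcription factor gene. NONMMUT069928.2, at chr9:72106139-72108684 within a Tcf12 exon, had counts of 168, 181, 200 and 135 in HFD and 31, 49, 71 and 72 in HFD + metformin (log2FC = -1.81 ± 0.31, adjusted P = 0.165). The retained-intron Tcf12 transcript ENSMUST00000184806, which shares the start coordinate 72106139, was at 2, 9, 2 and 1 counts in HFD and 28, 49, 52 and 39 in HFD + metformin (log2FC = 3.47 ± 0.90, adjusted P = 0.808). The lncRNA held 95.3% to 99.3% of the sum of these features in HFD and 50% to 64.9% in HFD + metformin, although here the sum itself was also lower, at 6.25 to 8.93 CPM against 3.24 to 5.20 CPM. The whole Tcf12 gene did not pass (log2FC = 0.15 ± 0.15, adjusted P = 0.788).

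**Figure D5:**
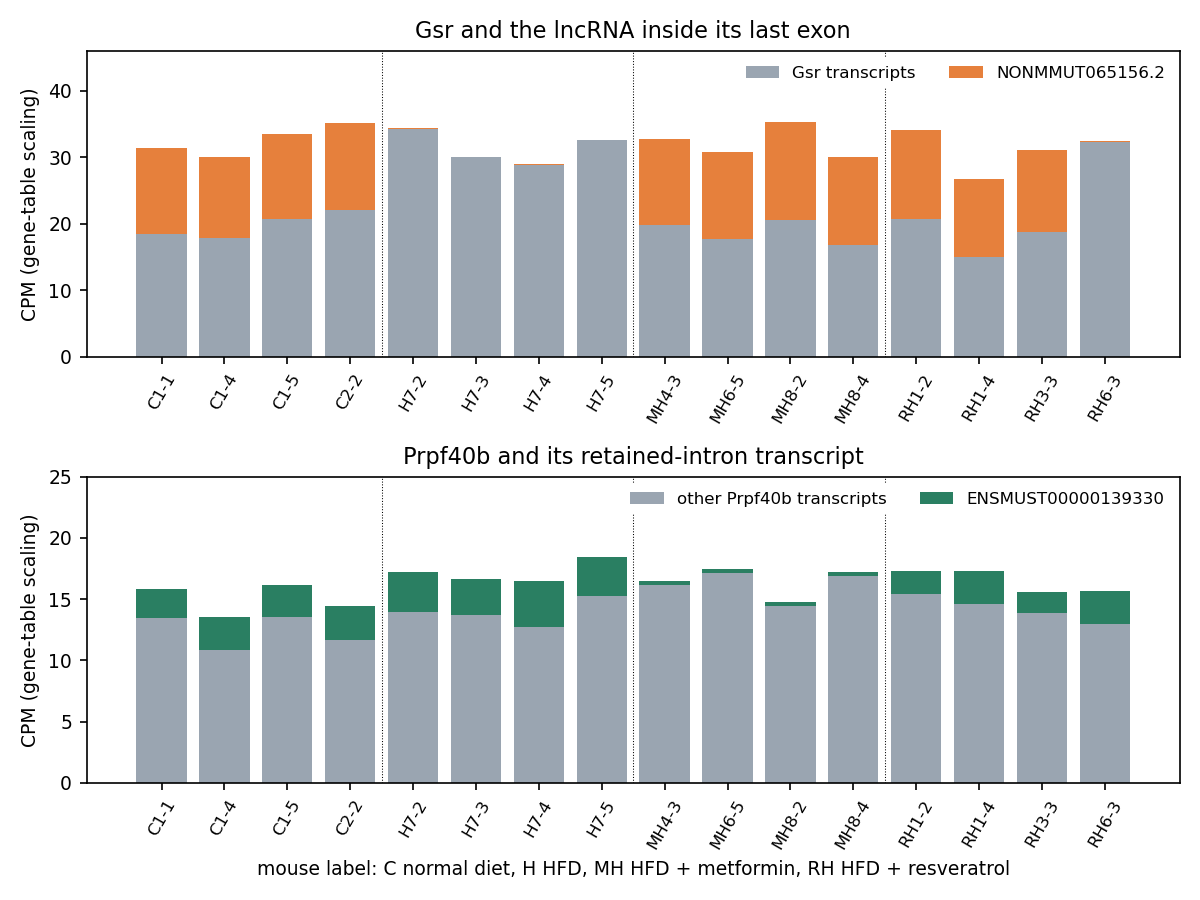
Depth-scaled counts (CPM, vertical axis from 0) of Gsr and NONMMUT065156.2 stacked in each of the 16 mice (upper panel), and of ENSMUST00000139330 and the other Prpf40b transcripts (lower panel). The sums of Gsr and the lncRNA overlap between HFD and HFD + metformin mice while the lncRNA is near 0 in HFD and in 1 resveratrol mouse, and the Prpf40b transcript, at 7 to 9 counts, is a thin band in the metformin mice and in no other mouse.

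Of the other upregulated lncRNAs, ENSMUST00000181045, a long intergenic transcript of 4933404O12Rik, had counts of 0, 12, 0 and 0 in HFD and 48, 33, 36 and 45 in HFD + metformin. The pooled ratio was 13.3 (exact 95% interval 7.42 to 26.3, counting error only), and HFD mouse H7-3 alone carried the HFD counts. In the fit to the mice the log2FC was 3.63 ± 0.75 (adjusted P = 0.333 by edgeR). NONMMUT009222.2, within the UTR of the potassium channel subunit gene Kcnmb1, had counts of 1 to 2 in HFD and 4 to 20 in HFD + metformin (log2FC = 3.01 ± 0.55). NONMMUT083099.1, which overlaps Purb and Gm11973, NONMMUT099370.1 and NONMMUT025054.2, which overlaps the UTR of Smagp, had log2FC of 2.47, 1.81 and 1.07, and their HFD counts did not exceed 11. Purb and Smagp themselves did not pass, with log2FC of 0.12 and -0.12.

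Of the downregulated lncRNAs, NONMMUT026006.2, at chr16:23989075-23992453, had counts of 740 to 1665 in HFD and 341 to 534 in HFD + metformin (log2FC = -1.58 ± 0.31). NONMMUT019242.2, within the phosphodiesterase gene Pde4d, had counts of 148, 117, 164 and 110 in HFD and 49, 50, 40 and 77 in HFD + metformin (log2FC = -1.46 ± 0.25), while Pde4d itself had a log2FC of -0.18 ± 0.12 and did not pass. NONMMUT127907.1, which overlaps Eps8l2 and B230206H07Rik, was at 34, 31, 20 and 21 counts in HFD and 6, 3, 8 and 3 in HFD + metformin (log2FC = -2.50 ± 0.43). It was also lower in metformin than in resveratrol mice (log2FC = -2.19, adjusted P = 0.653), and Eps8l2 was higher than in HFD at the unadjusted threshold (log2FC = 0.41 ± 0.13). NONMMUT115683.1 (log2FC = -1.25 ± 0.24) and NONMMUT139818.1 (-3.21 ± 0.64), which overlaps Gm26876, completed the set. Absence of overlap between the groups was a condition for naming these.

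Socs1 and a set of lncRNAs had been chosen by the study for RT-qPCR in mouse muscle. Among these lncRNAs, NONMMUT044897.2, which overlaps Cdc14a, was at 279, 540, 579 and 428 counts in HFD and 242, 107, 194 and 96 in HFD + metformin (log2FC = -1.54 ± 0.37, adjusted P = 0.418). NONMMUT005295.2, which overlaps the UTR of Traf3ip2, had counts of 284 to 422 in HFD and 80 to 249 in HFD + metformin (log2FC = -1.06 ± 0.37, adjusted P = 0.66). For both of them the groups overlapped after scaling for depth. NONMMUT128951.1 had counts of 0, 0, 1 and 0 in HFD and 0, 12, 18 and 2 in HFD + metformin, a pooled ratio of 31.6 (exact 95% interval 5.27 to 1286), with MH4-3 at 0. This interval covers counting error only and not the spread between mice. In the fit to the mice the log2FC was 4.23 ± 1.29 (adjusted P = 0.602 by edgeR). NONMMUT145909.1 had counts of 0, 2, 1 and 0 in HFD and 3, 14, 12 and 7 in HFD + metformin and was too low to be tested.

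At the level of single mRNA transcripts, 1346 of 44573 were called (3.02%), 815 upregulated (1.83%) and 531 downregulated (1.19%), and 2 passed an adjusted P below 0.05 by edgeR. These were the Nr4a3 transcript given above and ENSMUST00000139330, a retained-intron transcript of the splicing factor gene Prpf40b (Prpf40b-210, chr15:99307885-99315093). Its counts were 75, 70, 85 and 70 in the HFD mice and 7, 8, 9 and 8 in the metformin mice. The other 8 mice of the series had counts of 38 to 82, so that the low values were seen in all 4 metformin mice and in no other mouse. The log2FC was -3.28 ± 0.21 with an adjusted P of 1.36e-05 by edgeR, and the adjusted P stayed below 0.05 in all 14 alternative fits, at most 0.0159. Against the resveratrol mice the log2FC was -2.73 with an adjusted P of 0.000124 by edgeR.

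The gene Prpf40b as a whole did not pass, at 16.4 to 18.5 CPM in HFD and 14.8 to 17.5 CPM in HFD + metformin (log2FC = -0.06 ± 0.08, adjusted P = 0.846). The transcript made up 17.4% to 22.8% of the Prpf40b counts in HFD and 1.67% to 2.57% in HFD + metformin. The coding transcript ENSMUST00000118287 of the same gene was at 137 to 167 counts in HFD and 168 to 329 in HFD + metformin (log2FC = 0.60 ± 0.29, adjusted P = 0.814). Because transcript counts were estimated from reads that several isoforms share, a lower isoform and a different division of reads among the isoforms of Prpf40b cannot be told apart from these counts.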

How the data were processed

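Skeletal muscle of 16 mice had been sequenced as paired-end, rRNA-depleted RNA libraries. The processing notes of the submitters name fastp, HISAT2 and the build GRCm38. Per the study's methods, the authors counted fragments with StringTie. The deposited estimated counts per transcript were whole numbers and were tested as deposited, and the deposited FPKM values, which the authors had scaled by length and depth, were used only for levels per length. Transcript coordinates of the mRNA matrix equalled those of GENCODE M21 for 97.4% of 82388 transcripts. Whether counting used strand is not given in the sources used here, so that overlapping and antisense genes may share reads. Counts of mRNA transcripts were summed per gene name (23235 names).

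Groups came from the treatment label of each mouse. Genes, lncRNAs and mRNA transcripts were tested separately with edgeR 4.0.16 in R 4.3.3, with filterByExpr (minimum count 10, minimum total 15), TMM scaling within each matrix and a robust quasi-likelihood fit to all 16 mice, from which HFD + metformin against HFD was taken as a contrast. Standard errors were derived from the F statistic. Calls used the limits of the study, with P taken as unadjusted and Benjamini-Hochberg adjusted P-values over all features of a matrix beside them. Tested on simulated data, the fit recovered 97% of 200 genes, 87.5% of 200 lncRNAs and 85% of 200 transcripts simulated with an absolute log2FC of 2 in this comparison (85%, 66% and 44.5% at an adjusted P below 0.05), over 15206 genes, 16804 lncRNAs and 42736 transcripts. Of those simulated without a change, 0.653% of genes, 1.72% of lncRNAs and 2.56% of transcripts met the criteria. In the data 1.76%, 2.38% and 3.02% were called. No simulated mouse was set apart from its group as MH8-2 was.

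Named features were the members of each gene list with the smallest P-values, genes called without overlap of the groups and with at least 1 CPM in the higher group (up to 15 in each direction), lncRNAs likewise without the CPM minimum (up to 6), transcripts likewise at an adjusted P below 0.05 (up to 4), each number per direction, Socs1 and the lncRNAs chosen by the study for RT-qPCR in mouse muscle, and the 5 highest and 5 lowest KEGG pathways. Ddx58, Bst2, Nr4a1, Nr4a2, Prkaa2, Slc2a4, Prpf40b, Tcf12, Adipoq and the transcripts ENSMUST00000184806 and ENSMUST00000118287 were added after their values had been seen, as were list members and genes overlapping lncRNAs that are named for contrast. Some listed genes are not reported here. The comparison and all lists were chosen with earlier results of these data known. Promoter sequences came from RefSeq (GRCm38.p6). Alternatives were DESeq2 1.42.0, other scalings, no filter, a fit to the 8 mice, a fit without robust estimation, other thresholds and leaving out each mouse.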

Additional observations from a re-analysis of the deposited data

Results flagged for a closer look

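Single mice far from the other 3 mice of their group were looked for by the gap to the nearest mouse as a share of the range of the group, over 276 groups of 4 values, of which 11 passed Dixon's 95% limit for 4 values (chance passes about 1 in 20 such groups). In the HFD group these were Ndufa1 (0.849, H7-5 low), Srebf1 (0.843, H7-5 high), Hba-a1 (0.844, H7-3 high), Mlxip (0.932, H7-4 low), NONMMUT009222.2 (0.974, H7-5 high), ENSMUST00000181045 (1, H7-3 high), NONMMUT083099.1 (0.882, H7-2 high) and NONMMUT128951.1 (1, H7-4 high). The lncRNA values among them rest on at most 12 counts in any HFD mouse.

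In the HFD + metformin group they were Socs3 (0.882, MH6-5 low), Nr4a3 (0.875, MH8-4 low) and NONMMUT025054.2 (0.933, MH8-4 low). The Nr4a3 range in this group spans 2.48 to 2.88 CPM, so the gap is small in size. For Mlxip, H7-4 at 76.8 CPM stood close to the metformin mice.

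The effects of the treatments differed for ENSMUST00000139330, the retained-intron transcript of Prpf40b, in the direct contrast of HFD + metformin against HFD + resveratrol (log2FC = -2.73, adjusted P = 0.000124 by edgeR's quasi-likelihood test). The transcript was lower in 4 of 4 metformin mice than in every resveratrol mouse.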

How the results depend on the processing

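At the criteria, 271 genes, 419 lncRNAs and 1346 transcripts were called. Without a filter on low counts these numbers were 519, 2115 and 2956, in a fit to the 8 mice alone 182, 179 and 841, with no minimum fold 1232, 1223 and 2704, and with the adjusted P in place of the unadjusted P 2, 0 and 2. Leaving out each mouse in turn gave 107 to 550 genes, 364 to 735 lncRNAs and 1158 to 1976 transcripts. The lowest count of genes was without MH8-2, and without MH6-5 and MH8-4 it was 533 and 550. Without these mice 687 and 735 lncRNAs were called. At an adjusted P below 0.05, edgeR gave 2 genes, 0 lncRNAs and 2 transcripts, DESeq2 gave 32, 36 and 184, and the fit to the 8 mice gave 1, 4 and 3. Leaving out each mouse gave 0 to 2 genes, 0 to 1 lncRNAs and 1 to 4 transcripts. The cause of these shifts was not tested.

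Upregulated genes made up 76.8% of the gene calls with all mice, 56.6% in the fit to the 8 mice, 49.5% without MH8-2 and 87.1% without MH6-5. For lncRNAs the share was 55.8% with all mice, 40.2% in the fit to the 8 mice and 43.4% without MH8-2. With TMM scaling over both matrices, 567 genes were higher and 608 lower at an unadjusted P below 0.05, against 803 and 429 with scaling within the matrix, and the median log2FC of all genes was -0.02.

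Among the values of named features under the alternatives, 1768 kept their direction and side of the threshold, 119 lost significance, 34 gained it and 4 reversed, and 486 list medians moved by less than the spread between mice and 3 by more. The reversed values were log2FC of mt-Atp8 (0.031 without MH4-3, with a range of -0.26 to 0.031 over the mice left out), Slc2a4 (-0.034 without MH6-5 and -0.0074 without MH8-4, range -0.034 to 0.15) and Tcf12 (-0.0025 without MH8-2, range -0.0025 to 0.27), none of which had passed the test. No paired analysis was possible because the replicate numbers follow accession order and the labels tie no mouse of a group to a mouse of another.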

Other observations

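Outside the 8 mice compared, NONMMUT065156.2 was at 2 counts in resveratrol mouse RH6-3 and at 268 to 298 counts in the other resveratrol mice, and the normal diet mice had 230 to 379 counts. Gsr was 32.3 CPM in RH6-3 and 15.04 to 20.7 CPM in the other resveratrol mice.

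The Schwann cell and myelin list, in which none of 20 genes passed in HFD + metformin against HFD, had 9 genes lower in HFD + metformin than in HFD + resveratrol at an unadjusted P below 0.05 and none higher, where 1.67% of all genes were lower. The summed level of this list ranged from 74.5 to 560 CPM in the resveratrol mice and from 78.1 to 133 CPM in the metformin mice. Of 23 immediate early genes, 10 were lower and none higher in the same contrast. The NR4A receptor gene Nr4a2 was 1.58 to 2.79 CPM in the metformin mice and had a log2FC of -2.14 against the resveratrol mice (adjusted P = 0.833 by edgeR), whose values ranged from 2.04 to 17.4 CPM and overlapped.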
